A study of Brassica rapa subsp. pekinensis with 2 samples.

Results

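Among 50834 linear transcripts assembled from 2 RNA libraries of Chinese cabbage (Brassica rapa), 757 carried the class code p, which marks an assembled fragment lying just beyond the end of a reference gene without touching it. All rows with that code were taken, and each was paired with the reference transcript (class code =) of the same gene name. A partner was found for 647 of the 757 (85.5%), and for the other 110 no class = transcript of that gene name was matched, so their side was not analysed here. The side of a fragment, upstream of the 5′ end or downstream of the 3′ end of its partner, was read from the start, end and strand of the pair.

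Both libraries came from the double haploid line ‘FT’ and were made from total RNA after removal of ribosomal RNA, with a kit that keeps strand per the labels. The ‘Ant’ library held anthers of different stages, pooled from buds of flowering plants that had been vernalized in the cold. The ‘Mix’ library held root, stem and leaf of whole seedlings with true leaves, a stage before flowering. The labels give the cold treatment for both samples and the study's methods only for Ant, so organ cannot be told apart from plant age, and perhaps not from vernalization. With 1 library per group, no difference between them had a replicate, no test was possible, and fewer cells of a type cannot be told apart from less RNA per cell.

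Transcription by RNA polymerase II runs past the site where the messenger RNA is cleaved and polyadenylated, and the RNA made beyond that site is normally degraded quickly. RNA seen just past a gene end can be such run-on transcript, an unannotated stretch of the 3′ untranslated region, or an independent transcription unit in the space between genes. Class p names only the position, and short reads of total RNA do not by themselves separate these kinds. The words upstream and downstream below follow the strand of the partner gene.

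The estimated counts summed to 216371346 for Ant and 190816341 for Mix, which are not numbers of reads. By the study's own summary, more reads were mapped in Mix than in Ant. Tissue markers were read in both libraries. The 6 anther genes that the study named from these libraries were at FPKM 99.98 to 6151 in Ant and 0 to 0.0886 in Mix. Their choice from the same data fixes this in part, so they do not check the labels. The summed FPKM of 31 transcripts annotated as chlorophyll antenna proteins was 809 in Ant and 11826 in Mix. A single antenna transcript was higher in Ant, and the highest level of any of them in Ant was 783, most of the sum there. FPKM is the number of sequenced fragments scaled to transcript length and to the library total. A single window of chromosome A06 took 56.2% of the counts of Mix and 2.07% of those of Ant, and no class p transcript lay in it. For 17562 transcripts of every class both libraries reached an FPKM of 1. Their log2 ratios of Ant to Mix had a median of 0.54, so counts are also given after centring on that median. Totals without the A06 window took the same median to -0.17 and equal FPKM sums took it to -0.28, and which scaling is right was not tested.

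All 647 paired fragments lay downstream of their partner, beyond its 3′ end. None lay upstream and none overlapped the partner. The near edge of a fragment was 742 bases from the partner's 3′ end in the median (95% order-statistic interval 687 to 806), with a range from 0 to 1985 and quartiles at 402 and 1275.5. The bin from 400 to 499 bases held the most fragments, 62 of 647, and the bin from 1900 to 1999 held 17. The closest was MSTRG.11930.1 (A04:17006096-17006675, all coordinates in the Brassica rapa v3.0 build), which abutted BraA04g023080.3C with no base between them. The farthest was MSTRG.17697.1, 1985 bases past BraA06g034040.3C, described as a branched-chain amino acid aminotransferase-like protein.

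**Figure D1:**
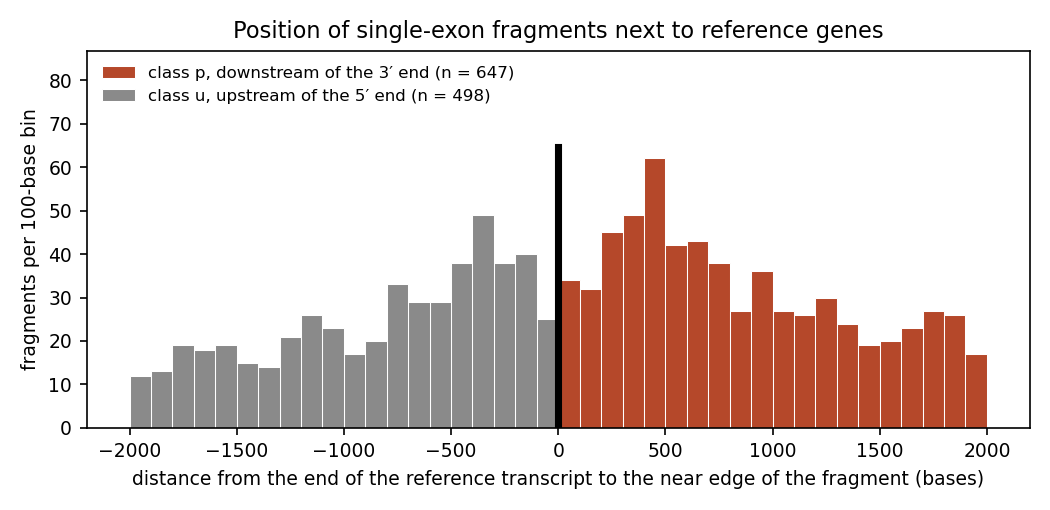
Distance in bases (x axis) from the end of a reference transcript to the near edge of a single-exon fragment, in 100-base bins, with the number of fragments on the y axis. The 647 class p transcripts all lie to the right, past the 3′ end, and the 498 single-exon class u transcripts that lie within 2 kb of a gene on its upstream side are drawn to the left as negative distances.

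The class code itself divides fragments by side. Class u, the code for intergenic transcripts, held 1420 single-exon fragments, of which 498 lay within 2 kb upstream of the nearest reference gene. Only 35 of the 1420 lay within 2 kb downstream of it, and all 35 were on the strand opposite to that gene. The side of class p is therefore set by how the codes are assigned and is not a result, and the upstream class u fragments served below as the mirror set with which class p was compared.

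All 757 fragments consisted of 1 exon. Their length ran from 200 to 5548 nt with a median of 467 (441 to 502), against 1038 (1032 to 1047) for the 34213 reference transcripts and 462.5 (426 to 506) for the upstream class u fragments. The 757 fragments carried 743 gene names, so that 14 genes had 2 fragments each. Other assembled transcripts shared bases with 31 fragments and with none of the other 726. In 537 of the 647 pairs nothing else in the table lay in the gap between fragment and partner.

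A strand was given for 166 of the 757 fragments (21.9%), and 149 of these were in pairs. In all 149 the strand was that of the partner, which the class code requires. The share with a strand fell with distance, from 24 of 35 fragments within 100 bases of the partner (68.6%) to 55 of 187 at over 100 and up to 500 bases, 33 of 187 at over 500 and up to 1000 bases, and 37 of 238 farther out. The upstream class u fragments had the same gradient, from 76.9% within 100 bases to 17.2% beyond 1000. For the 498 paired fragments without a strand, the partner was on the plus strand in 298 (59.8%, 55.5 to 64.1), whereas 50.3% of reference transcripts and 49.4% (44.2 to 54.7) of the genes next to upstream class u fragments without a strand were. For the paired fragments with a strand it was 66 of 149 (44.3%, 36.6 to 52.3).

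Beyond the fragment lay a next reference gene, which was on the same strand as the partner in 400 of 647 pairs and on the opposite strand in 247. The distance from fragment to next gene was 2873 bases in the median (2649 to 3301), and in 242 pairs it was within 2 kb. For 128 of the 647 pairs (19.8%) the next gene, or another, was nearer to the fragment than the partner whose name it carried. Fragments were spread over the 10 chromosomes, with 40 on A10 (1.56 per 100 reference transcripts) at the low end and 70 on A08 (2.64 per 100) at the high end.

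Most class p transcripts were present in Ant and low in Mix. FPKM was at least 1 for 684 of 757 in Ant and for 196 in Mix, and the median level was FPKM 1.90 in Ant (1.75 to 2.03) and 0.0613 in Mix (0.0318 to 0.106). Mix listed 316 fragments at 0, Ant 12. A floor of 6 estimated counts was set as the limit of detection, because 1 estimated count was worth less than 1 read. By that floor 372 fragments were seen in both libraries, 369 in Ant alone and 16 in Mix alone. Of the 498 upstream class u fragments 247 were seen in Ant alone and 11 in Mix alone, and of all 50834 transcripts 9733 and 4195.

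Counts were concentrated in very few fragments. The 5 with the most estimated counts held 44.6% of all class p counts in Ant and 83.0% of those in Mix, and the first 10 held 66.3% and 92.0%. The same shares were not taken for other classes. Class p as a whole took 1.24% of the estimated counts of Ant and 1.66% of those of Mix. Below these few, levels were low: in 353 fragments FPKM stayed under 2 in both libraries.

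**Figure D2:**
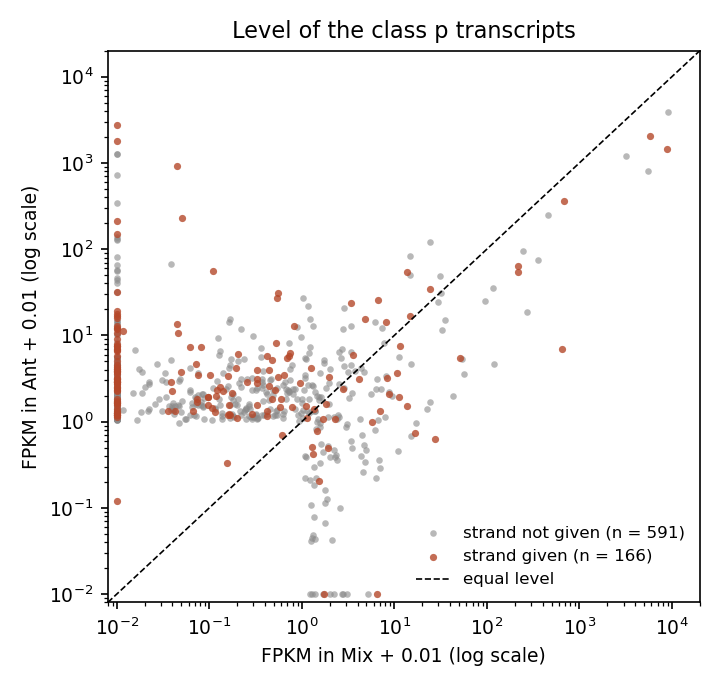
FPKM of each of the 757 class p transcripts in Ant (y axis) against Mix (x axis), both on log scales after adding 0.01, so that the column of points at the left edge holds the 316 fragments listed at 0 in Mix. The dashed line marks equal levels, and colour separates the 166 fragments with a strand from the 591 without one.

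Each log2 ratio was taken after adding 1 to both FPKM values, which shrinks the ratios of weakly expressed fragments. Of the 753 class p transcripts that reached FPKM 1 in one library or both, 511 had a ratio above 1 and 88 a ratio below -1. The background over all 36009 transcripts that passed the same filter was 50.2% above 1 and 16.8% below -1, and over reference transcripts it was 41.0% and 21.7%. The shares of class p were 67.9% (64.4 to 71.1) and 11.7% (9.58 to 14.2). The upstream class u fragments gave 67.9% (63.6 to 71.8) and 9.04% (6.82 to 11.9), so that class p and its upstream mirror set differed by less than their counting intervals. The median ratio was 1.23 (1.18 to 1.29) in class p, 1.27 (1.20 to 1.34) in upstream class u and 0.62 (0.59 to 0.65) in reference transcripts. At a stricter cutoff of 2 the picture differed: 153 class p transcripts were above it (20.3%) and 31 below -2 (4.12%), against 24.6% and 7.01% of all transcripts, 21.2% and 9.48% of reference transcripts and 21.5% and 2.61% of upstream class u fragments.

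These shares rest on which library carried a fragment past the filter. Ant alone did so for 557 of the 753, and of these 485 were above 1, which their selection all but fixes. Mix alone did so for 69, of which 50 were below -1. The 127 fragments that reached FPKM 1 in each library had 26 above 1 and 38 below -1, with a median of -0.03 (-0.38 to 0.18). The 85 such upstream class u fragments had 15 above 1 and 20 below -1, with a median of 0.02 (-0.36 to 0.22), and the 11066 such reference transcripts had a median of 0.44 (0.41 to 0.47). Only 4 class p transcripts were under FPKM 1 in both libraries, against 14304 of the 34213 reference transcripts. Since the levels themselves decide which of these groups a fragment falls in, the groups describe the counts and test nothing.

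Scaling moved the counts as well. With ratios centred on the median transcript, 255 class p transcripts were above 1 and 116 below -1, so that the share of the higher among those past the cutoff went from 85.3% to 68.7%. Libraries scaled to the same FPKM sum gave 351 and 121 (74.4%), and totals without the A06 window gave 482 and 120 (80.1%). Centred, 34.5% of all transcripts were above 1 and 23.6% below -1, against 33.9% and 15.4% of class p. Above 1 were 34.5% of all transcripts and 46.6% of class p with equal FPKM sums, and 39.6% and 64.0% without the A06 window.

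**Figure D3:**
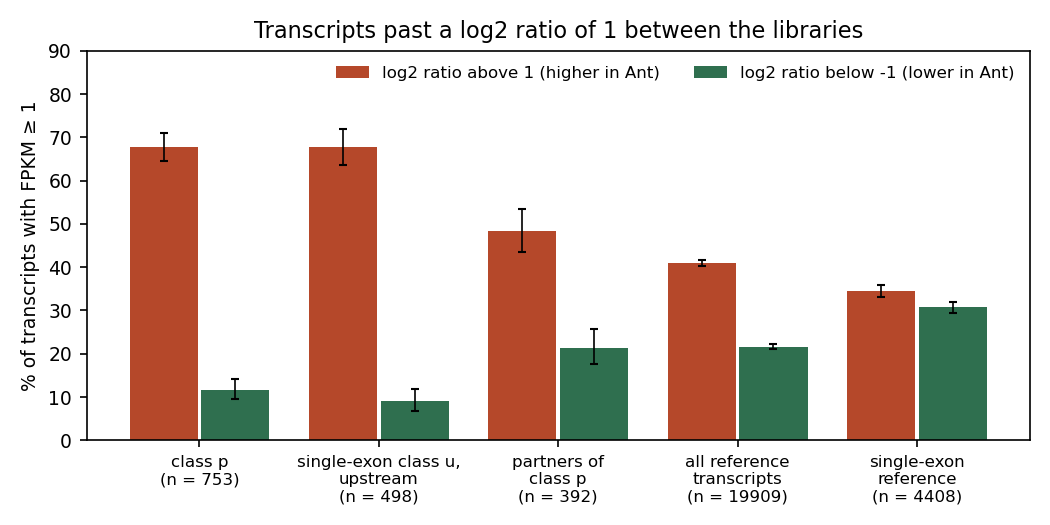
Percentage of transcripts (those reaching FPKM 1 in one library or both) whose log2 ratio of Ant to Mix was above 1 or below -1, by class, with 95% Wilson intervals as bars and the number of transcripts under each class. Class p and upstream class u each reach 67.9% above 1, reference transcripts 41.0%.

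The counts past the cutoff were also split by level. The bins use the higher of the 2 FPKM values that form the ratio, so the filter and pseudocount shape these counts. The same bins were not counted for other classes. Of fragments whose higher FPKM was under 2, 230 of 353 were above 1 and 16 below -1. At FPKM 2 to 10 the counts were 217 and 41 of 298, and at 10 to 100 they were 50 and 18 of 77. At 100 and above 14 of 29 were above 1 and 13 below -1. These 29 held 80.4% of the class p counts of Ant and 94.0% of those of Mix, and most were of 2 kinds. In 12, Mix was at or under the floor. In 16, FPKM was at least 1 in both libraries, and 15 of these were higher in Mix. The one left over, MSTRG.8254.1, had 7 estimated counts in Mix. The median length was 546 nt (range 281 to 815) in the 12 and 301 nt (range 207 to 1726) in the 16. Of the 24 among the 29 that had a partner, 21 had a partner that stayed under FPKM 10 in both libraries.

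The fragment with the highest level in both libraries was MSTRG.15700.1 (A06:2264766-2265053, 288 nt, no strand). It reached FPKM 3887 in Ant and 9060 in Mix, 2.33-fold higher in Mix. It lay 850 bases past BraA06g003800.3C, a gene of unknown function whose own FPKM was 0.211 in Ant and 0 in Mix. In Ant the fragment thus stood 18415-fold above the gene it is named after, with nothing else in the gap.

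MSTRG.27653.1 (A09:41578749-41579197, minus strand) lay 41 bases past BraA09g058720.3C, an AGL61-like MADS-box gene whose Arabidopsis counterpart acts in the central cell of the ovule. The fragment had 2037 in Ant and 5844 in Mix, while that of the gene was 0 in Ant and 0.0906 in Mix. MSTRG.4297.1 (A02:9781754-9782151, plus strand) had FPKM 1452 in Ant and 8790 in Mix, 6.06-fold higher in Mix. It followed BraA02g017670.3C by 1325 bases, a gene for an F-box/kelch-repeat protein, the substrate-binding kind of ubiquitin ligase subunit, at 0.0445 and 0.0534. MSTRG.12335.1 (A04:20262892-20263196) had 813 in Ant and 5580 in Mix past the uncharacterized BraA04g029180.3C, at 0.0250 and 0. MSTRG.11888.1 (A04:16656106-16656402), with no matched partner, had 1198 in Ant and 3200 in Mix. MSTRG.9229.1 had 365 in Ant and 690 in Mix, a log2 ratio of -0.92 that centring took to -1.45. These 6 were named as the highest in Mix, so their direction follows in part from the choice. Where paired, their partners were under FPKM 0.5.

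A second group was abundant in Ant and absent from Mix. MSTRG.6756.1 (A03:4379848-4380399, 552 nt, minus strand) had FPKM 2730 in Ant from 349559 estimated counts and 0 in Mix, at least 57937-fold higher in Ant. Its partner BraA03g010150.3C, described as a coiled-coil R3HCC1L-like protein, lay 935 bases before it and was nearly even, at 4.30 in Ant and 3.57 in Mix.

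MSTRG.24206.1 (A09:3256724-3257156, minus strand) had FPKM 1813 in Ant and 0 in Mix. It lay 938 bases past BraA09g005550.3C, which encodes phosphoglucan, water dikinase, an enzyme that phosphorylates starch ahead of its breakdown, at 0.769 in Ant and 2.87 in Mix. The fragment lay within the span of MSTRG.24202.1, an assembled transcript on the plus strand that was also seen in Ant alone, at 289 against 0. The level of each is uncertain where both strands are read together, since the strand setting of the counting is not given in the sources used here.

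MSTRG.3483.1 (A02:2775090-2775657, no strand) had FPKM 1272 in Ant and 0 in Mix, 478 bases past BraA02g005870.3C. That gene, for the defence-related transcription factor WRKY72, went the other way, at 0.0448 in Ant and 5.92 in Mix. MSTRG.3437.1 (A02:2532316-2532959) had 1253 in Ant and 0 in Mix, at least 31029-fold higher in Ant, past the phosducin-like gene BraA02g005330.3C at 0 and 0.0467. MSTRG.27008.1 had 719 in Ant and 0 in Mix with no matched partner, and MSTRG.11957.1 had 342 and 0 past a beta-glucosidase 33 gene at 0.177 and 0.733.

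In MSTRG.24018.1 (A09:1776799-1777303, plus strand) fragment and gene were both abundant in Ant. The fragment had FPKM 912 in Ant and 0.0343 in Mix, 416 bases past BraA09g002900.3C, which encodes the peptide chain release factor that recognises stop codons (eRF1-3), at 72.6 in Ant and 30.5 in Mix. The fragment stood above the gene in Ant and far below it in Mix. MSTRG.8254.1 (A03:15341898-15342621, plus strand) had 229 in Ant and 0.0402 in Mix, the latter from 7 estimated counts, past an aldose 1-epimerase gene (BraA03g030570.3C) at 0.324 and 1.94.

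The fragment most depleted in Ant was MSTRG.12244.1 (A04:19622087-19622309, 223 nt, plus strand), at FPKM 6.87 in Ant and 651 in Mix, 94.7-fold higher in Mix. The gene whose name it carried, BraA04g027930.3C, encodes a succinate dehydrogenase assembly factor, a helper in building that mitochondrial enzyme, and it was higher in Ant, at 5.38 against 0.854. The gene on its other side, BraA04g027940.3C, ended 116 bases away on the opposite strand. It encodes an activase of Rubisco, the carbon-fixing enzyme of photosynthesis, and it had 8.77 in Ant and 2571 in Mix. An assembled isoform of the activase gene on the minus strand, MSTRG.12245.1, reached over 209 of the fragment's 223 bases and had 1.07 in Ant and 249 in Mix. The fragment was lower in Ant, like the convergent gene and unlike the gene that named it. With this overlap the level of the fragment, and so its direction, is uncertain.

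MSTRG.13017.1 (A05:3036829-3037076, minus strand) had FPKM 0.619 in Ant and 27.3 in Mix. Its partner was lower in Ant too. BraA05g006030.3C, which encodes the light-harvesting protein CP29.3, had 2.92 in Ant and 225 in Mix, 1063 bases before the fragment. Another assembled transcript, MSTRG.13016.1, spanned the whole fragment on the plus strand at 1.90 in Ant and 33.4 in Mix, so the level of the fragment is uncertain. The remaining fragments of lowest ratio had weakly expressed partners or none. MSTRG.3908.1 had 4.70 in Ant and 119 in Mix with no matched partner, MSTRG.27083.1 had 1.96 and 43.5 past BraA09g050630.3C at 0.988 and 0.245, and MSTRG.3943.1 had 18.4 and 271 past BraA02g012700.3C at 0.0252 and 0.00995. MSTRG.28901.1 (3.52 in Ant, 56.3 in Mix), MSTRG.9605.1 (0.732, 16.8) and MSTRG.19877.1 (1.39, 22.7) lay past genes whose FPKM was under 1.5 in both libraries. The last of these genes, BraA07g022550.3C, is described as an ABI5-like protein, a bZIP factor of abscisic acid signalling.

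The question the pairing addresses is whether RNA beyond a gene end moved with the gene. In 395 pairs both fragment and partner had FPKM of at least 1 in either library, and in 251 of them (63.5%, 58.7 to 68.1) the 2 ratios had the same sign. For 2385 pairs of neighbouring reference transcripts on the same strand with gaps of the same range the share was 56.4% (54.4 to 58.4). Because most fragments and many partners were higher in Ant, the share with the same sign is raised by direction alone. Across the 395 pairs, which share the same 2 libraries and are not independent replicates, the Spearman correlation between the ratios was 0.07 and Pearson's r 0.02. For neighbouring reference transcripts the Spearman correlation was 0.04, and for 338 upstream class u fragments and their genes it was 0.29.

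Both ratios were past 1 in size in 234 pairs. Fragment and partner were both above 1 in 154, both below -1 in 9, and opposed in 71: the fragment above and the partner below in 56, and the reverse in 15. Fragments were above 1 in 154 of 191 pairs whose partner was above 1 (80.6%, 74.4 to 85.6), in 66 of 118 whose partner lay between (55.9%, 46.9 to 64.6) and in 56 of 86 whose partner was below -1 (65.1%, 54.6 to 74.3). They were below -1 in 7.85%, 16.1% and 10.5% of these groups. Where the partner was under FPKM 1 in both libraries, 158 of 248 fragments (63.7%) were above 1. The share was highest next to genes higher in Ant, and a majority of fragments was above 1 next to genes of every other group too. Fragments carried past the filter by Ant alone, 557 of the 753 in all of class p, are all but fixed above 1. These majorities therefore follow in large part from the filter and do not show how fragments relate to their genes.

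**Figure D4:**
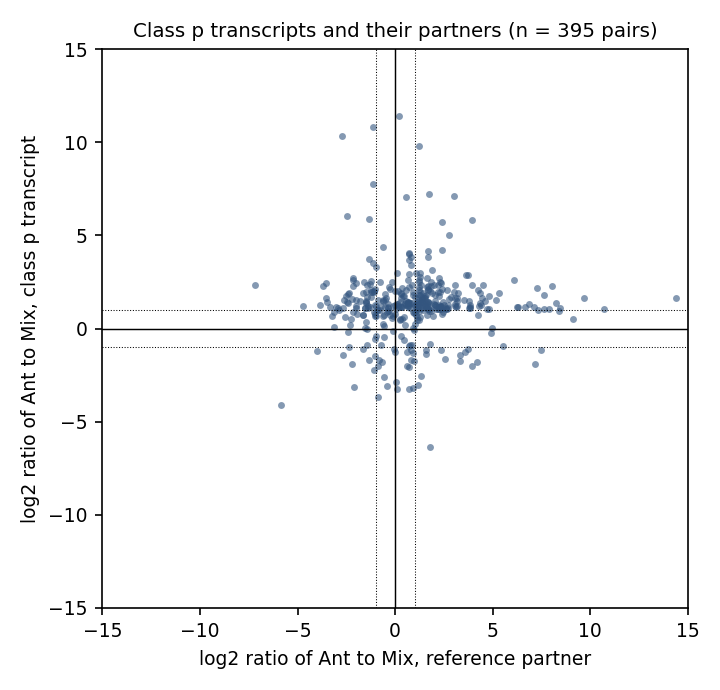
Log2 ratio of Ant to Mix of the class p transcript (y axis) against that of its reference partner (x axis) for the 395 pairs with FPKM of at least 1 on both sides. Dotted lines mark ratios of 1 and -1. Fragments form a band just above 1 across the whole range of partner ratios, with 154 pairs in the upper right and 56 in the upper left corner beyond the lines. A fragment just past the filter in Ant and absent from Mix has a ratio near 1 by construction.

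For the share with the same sign, no difference by distance to the gene went beyond the counting intervals. These were wide and cannot exclude a difference. The share of pairs with the same sign was 66.7% (46.7 to 82.0) of 24 at gaps of up to 100 bases, 68.5% (59.3 to 76.4) of 111 up to 500, 63.5% (54.8 to 71.4) of 126 up to 1000 and 59.0% (50.5 to 66.9) of 134 beyond, with intervals that overlapped throughout. It was 68.0% (58.2 to 76.5) of the 97 pairs whose fragment had a strand and 62.1% (56.5 to 67.4) of the 298 without. Counting the partner's level as the sum of its reference transcript and class j isoforms, which share a splice junction with the gene, gave 65.4% of 463 pairs and a Spearman correlation of 0.10.

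The next gene was compared in the same way. In 102 cases with a next gene within 2 kb and all 3 transcripts measured, the fragment had the same sign as its partner in 71 (69.6%, 60.1 to 77.7) and as the next gene in 64 (62.7%, 53.1 to 71.5), with a Spearman correlation of 0.20 in each and overlapping intervals. MSTRG.29766.1, at FPKM 65.1 in Ant and 0 in Mix, carried the name of BraA10g024800.3C, a leucine-rich repeat receptor-like gene at 0.163 in Ant and 5.41 in Mix. The next gene on its other side, BraA10g024810.3C, described as a triacylglycerol lipase, lay 533 bases away and had 126 in Ant and 0.406 in Mix.

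In the 5 pairs in which the ratio of the fragment lay furthest below that of its partner, the partner was a gene with high FPKM in Ant. This follows in large part from how the pairs were chosen. BraA01g015410.3C, uncharacterized, had the highest FPKM of any reference transcript, 21447 in Ant and 0 in Mix, and its fragment MSTRG.1125.1, at 1575 bases, had 2.09 and 0. The pectate lyase 4 gene BraA03g046540.3C, of an enzyme family that cuts pectin in the cell wall, had 1700 in Ant and 0 in Mix, and its fragment MSTRG.9387.1 had 1.11 and 0. The pectate lyase 7 gene BraA01g044950.3C had 546 and 0, and its fragment MSTRG.3039.1 had 1.30 and 0.630, a log2 ratio of 0.50 that centring took to -0.04. In these 3 pairs the fragment had the same sign as the gene but stayed far below it in Ant.

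In the other 2 fragment and gene were opposed. The myosin-binding protein 5 gene BraA06g014670.3C had FPKM 141 in Ant and 0 in Mix, while its fragment MSTRG.16440.1, 597 bases past it, had 0 in Ant and 2.68 in Mix, at least 78.6-fold higher in Mix. BraA07g040470.3C had 199 and 0.120, and its fragment MSTRG.21193.1 had 0 and 1.21. Conversely, BraA01g032580.3C, which encodes the 5 kDa subunit of photosystem II, had 0.857 in Ant and 265 in Mix, and its fragment MSTRG.2161.1, at 1195 bases, had 4.15 in Ant from 202 estimated counts and 0 in Mix.

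FPKM is scaled to length, so the level of a fragment can be set beside that of its partner. Where both were above the floor, the ratio of fragment to partner was 1.31 in the median (0.98 to 1.70) over 549 pairs in Ant and 0.604 (0.327 to 1.05) over 268 pairs in Mix. Counting class j isoforms into the partner lowered these medians to 0.578 and 0.358, and keeping only pairs with no transcript in the gap gave 1.001 and 0.391. The fragment was the higher of the pair in 382 of 647 pairs in Ant (59.0%) and in 195 in Mix (30.1%). Only 4 of the 757 fragments were under FPKM 1 in both libraries, and 557 reached it in Ant alone. Partners were listed at any level, and in 249 pairs the partner was under FPKM 1 in both libraries. These comparisons of level are therefore shaped by that selection and test nothing. Median FPKM of partners was 1.12 in Ant and 0.487 in Mix.

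By distance, the ratio in Mix was 0.260 (0.0977 to 0.888) over 24 pairs within 100 bases and 0.217 (0.118 to 0.402) over 81 pairs farther out up to 500 bases, then 1.38 (0.337 to 2.83) over 70 pairs up to 1000 bases and 1.06 (0.616 to 2.78) over 93 pairs beyond. The interval of the second bin lay below that beyond 1000 bases, and that of the first overlapped it. The median FPKM of partners in Mix fell over the 4 bins (1.5, 0.575, 0.479 and 0.317) while that of fragments was 0.187, 0.0871, 0.0322 and 0.0639. Over all pairs the fragment was the higher in Mix in 22.9%, 27.3%, 29.4% and 34.0%. In Ant the ratios were 1.17, 1.39, 0.955 and 1.62, with intervals that overlapped throughout. In the upstream class u fragments of Mix the medians were 0.834, 0.546, 0.355 and 0.802 in the same bins, and all 4 intervals overlapped. These ratios leave out pairs in which either side was at or under the floor, and 268 of the 647 pairs remained in Mix.

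**Figure D5:**
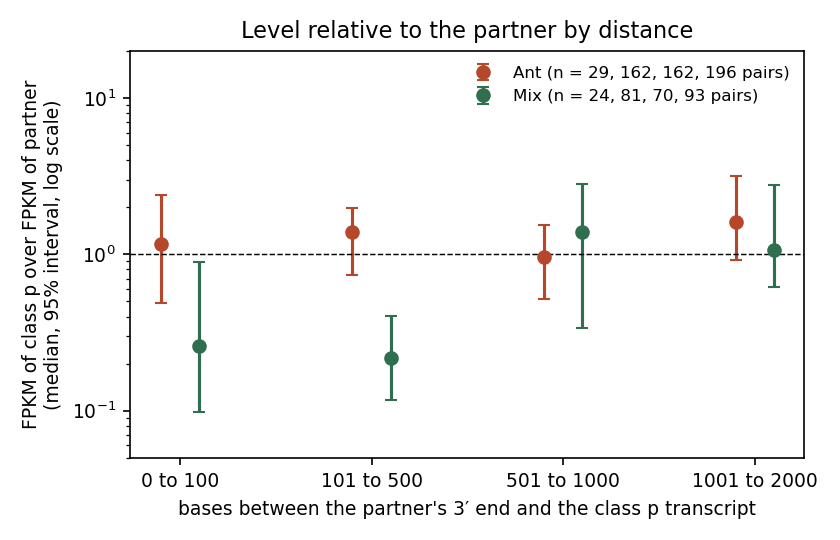
Median ratio of the FPKM of the class p transcript to that of its partner (y axis, log scale) in 4 bins of distance past the partner's 3′ end (x axis, bases), for pairs with both above 6 estimated counts. Bars are 95% order-statistic intervals over pairs and the dashed line marks equal levels. The medians of Mix are 0.260, 0.217, 1.38 and 1.06, with wide intervals in all but the second bin, and those of Ant lie between 0.955 and 1.62.

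For 14 gene names there were 2 fragments each. Not all of these had a partner: the 647 pairs held 635 partners. Both fragments of BraA02g016780.3C, for example, had none, so their side was not analysed. In 11 of the 14 both had the same sign, and in 8 both were above 1. Since 67.9% of all measured class p transcripts were above 1, both counts are raised by direction alone. BraA02g005330.3C had MSTRG.3436.1 at FPKM 3.55 in Ant and 0 in Mix and, 258 bases away, MSTRG.3437.1 at 1253 and 0. Past BraA01g013980.3C, a tetraspanin-5 gene, MSTRG.1021.1 had 12.3 in Ant and 0 in Mix, while MSTRG.1022.1, 285 bases from it, had 35.7 and 116, in the opposite direction. In BraA04g018730.3C the fragments also differed, with 1.07 in Ant and 0.241 in Mix for the one and 0.283 and 6.94 for the other.

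Fragments were also found between a pair of convergent genes. Past the purple acid phosphatase 10-like gene BraA03g043110.3C, which releases phosphate from organic esters, MSTRG.9133.1 (A03:21690082-21691131, no strand) had FPKM 32.0 in Ant and 0 in Mix. From the facing gene BraA03g043120.3C, MSTRG.9138.1 (A03:21692395-21695635, minus strand, 3241 nt) had 16.7 and 0. Both genes were higher in Ant as well, at 6.43 against 0.108 and at 2.25 against 0. The plus-strand transcripts MSTRG.9139.1 and MSTRG.9140.1 shared 1725 and 1356 bases of the span of MSTRG.9138.1. They had 0.0957 and 4.19 in Ant and 0 in Mix, so the level of MSTRG.9138.1 is uncertain. Of the 31 fragments that shared bases with another assembled transcript, 15 did so with one on the opposite strand.

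The partners were sorted into gene lists by the words of their annotation, and the lists were not tested against each other. Partners with chloroplast or photosynthesis terms numbered 95 of the 647 (14.7%, against 15.6% of reference transcripts), those with pollen or cell wall terms 39 (6.03% against 7.08%), transcription factors 46 (7.11% against 7.65%), protein kinases 21, ribosome and translation 15, transport 32, ubiquitin and proteolysis 27, and genes without a description or uncharacterized 135. Over all pairs 434 of 643 fragments were above 1 and 76 below -1, with a median of 1.21.

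Of the 95 fragments past chloroplast genes, 66 were above 1 and 12 below -1, with a median of 1.27 (1.14 to 1.56). Of the 58 partners of that list with FPKM of at least 1, 23 were above 1 and 17 below -1, with a median of 0.55 (-0.41 to 1.22), where all 392 partners had 190 above 1 and 84 below -1 and a median of 0.91 (0.71 to 1.15). In 34 of 59 pairs of the list the signs were the same. Its fragment of highest level after those already named was MSTRG.26842.1, at 122 in Ant and 24.4 in Mix past BraA09g047010.3C at 2.52 and 0.

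Of the 39 fragments past pollen and cell wall genes, 29 were above 1 and 3 below -1, with a median of 1.25. In 22 of 29 pairs of this list the signs were the same (75.9%). Of its 28 measured partners 17 were above 1 and 6 below -1, so this share is raised by direction alone. The signs were the same in 13 of 26 pairs for transcription factors, 2 of 7 for kinases and 5 of 14 for ribosome and translation. They were the same in 13 of 22 for transport and 14 of 20 for ubiquitin and proteolysis. MSTRG.10735.1 was an exception to the direction, at FPKM 25.1 in Ant and 96.6 in Mix, past the expansin-A16-like gene BraA04g004550.3C, of a family that loosens the cell wall, at 0 in Ant and 3.63 in Mix.

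Of the 45 measured fragments past transcription factor genes, 27 were above 1 and 6 below -1. Of their 27 measured partners, 10 were above 1 and 11 below -1. Of 20 past kinase genes 15 were above 1 and 2 below -1, among them MSTRG.23016.1 at 13.9 in Ant and 0 in Mix past BraA08g025430.3C, a receptor-like kinase gene at 0.0274 and 0. Of the 27 past genes of ubiquitin and proteolysis 20 were above 1 and 5 below -1. MSTRG.16194.1, past the serine carboxypeptidase-like 50 gene BraA06g011100.3C, was below -1 with its gene, at 75.7 in Ant and 356 in Mix against 1.12 and 3.54 for the gene. MSTRG.29811.1 had 1.70 in Ant and 24.4 in Mix, 86 bases past a leukotriene A-4 hydrolase gene (BraA10g025320.3C) that was nearly even at 1.81 and 1.60. MSTRG.23720.1, on the minus strand, had 15.8 in Ant and 0 in Mix past a pre-mRNA-processing factor 19 gene at 1.18 and 0.336. It shared 236 bases with the plus-strand transcripts MSTRG.23719.1 (240 in Ant, 0 in Mix) and MSTRG.23719.2 (137 in Ant, 0.220 in Mix), so its level is uncertain.

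Past genes of ribosome and translation 8 of 15 fragments were above 1 and 3 below -1, with a median of 1.09 (-0.85 to 1.43). MSTRG.14299.1 had FPKM 8.99 in Ant and 0 in Mix, MSTRG.2708.1 had 3.34 and 8.13, and MSTRG.3200.1 had 3.13 and 6.45, a log2 ratio of -0.85. The list follows annotation terms: the partner of MSTRG.3200.1 is described as a calcium-binding mitochondrial carrier and that of MSTRG.14299.1 as uncharacterized. MSTRG.14299.1 also shared 1186 bases with the same-strand class u transcripts MSTRG.14299.2 and MSTRG.14299.3, at 7.12 and 1.89 in Ant. Past transport genes 23 of 32 were above 1 and 3 below -1. MSTRG.21195.1, past the TOM1-like gene BraA07g040480.3C, had 57.4 in Ant and 0 in Mix, and MSTRG.18484.1 had 46.0 and 0. MSTRG.11798.1 went against its gene, at 11.5 in Ant and 33.1 in Mix past the metal tolerance protein B gene BraA04g021070.3C, of a family that moves metal ions across membranes, at 16.4 and 0.705.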

How the data were processed

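Transcript levels of 2 libraries (Ant and Mix, 1 each) were analysed. The authors trimmed reads, mapped them to the Brassica rapa v3.0 genome and assembled them with StringTie. The submitters' processing notes list HISAT2, StringTie and TopHat, and the study names both Ballgown and Cuffdiff for levels, so it is not clear which tool gave the levels. The deposited FPKM, scaled to length and library, was taken unchanged. The deposited estimated counts rose in proportion to FPKM and length, with a coefficient of variation of 0.0190% in Ant and 0.0202% in Mix above 1000 counts, so they were derived from coverage and 1 was worth less than 1 read. The floor was therefore set at 6, above the usual 3, and folds against a library not above it are lower bounds. Floors and intervals cover counting error only. The strand setting of counting was not given in the sources used here, so levels of overlapping transcripts and of near-identical copies are uncertain.

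Python 3.11.15 with pandas 2.3.3 and scipy 1.17.1 was used. Log2 ratios had a pseudocount of 1, a filter of FPKM of at least 1 in either library and a cutoff of 1. No test was run. Intervals are 95% Wilson intervals for shares and order-statistic intervals for medians, and treat fragments as independent. Pairing, sides and ratios were checked on simulated data. Named members were the 6 highest in each library, the 8 highest and 8 lowest ratios, the 5 pairs most apart in each direction, the nearest and farthest, and up to 3 per gene list by level, and others, such as the overlapping and next genes and the 2 fragments of 1 gene, were chosen after their values were seen. The members and lists were chosen with earlier results of these data known. Pseudocount, filter, scaling, cutoff, overlap, length and choice of partner were varied. No genome of this build was used, so no sequence is shown. The circular RNA table was not used.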

Additional observations from a re-analysis of the deposited data

How the results depend on the processing

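All values rest on 1 library per group, so no alternative could leave out a replicate, and no paired analysis was possible because each group has 1 library. The median ratio of class p was 1.23 and became 3.57 with a pseudocount of 0.1, 5.04 with 0.01, 0.69 after centring on the median transcript, 0.956 with equal FPKM sums, 2.39 in fragments with FPKM of at least 5 (an alternative chosen after seeing the data) and -0.0258 in the 127 that reached FPKM 1 in each library. The 511 above and 88 below the cutoff became 26 and 38 with FPKM of at least 1 in both, 153 and 31 at a cutoff of 2, and 111 and 49 at FPKM of at least 5, each of which tests fewer fragments or a stricter limit. Centring gave 255 above. The share of pairs of the same sign (63.5%) was 55.9% of 34 pairs with FPKM of at least 1 in both and 56.7% with equal FPKM sums. The median difference of fragment minus partner (0.278) became 1.49 and 2.64 with pseudocounts of 0.1 and 0.01, 0.776 without filter, 0.679 without the A06 window, 0.618 with equal sums, and -0.864 with FPKM of at least 1 in both. Adding class j isoforms, chosen after seeing the data, took the ratio of fragment to partner in Ant from 1.31 to 0.578, and pairs with nothing in the gap took it in Mix from 0.604 to 0.391. The side of all 647 fragments was the same by midpoints. Of the 45 named fragments, 41 kept direction and side of the cutoff after centring, and MSTRG.3039.1 alone reversed, to -0.0402. The causes of these shifts were not tested. The floor was 0.0554 FPKM in Ant and 0.0557 in Mix at the median length, and 16 and 369 of 757 fragments were at or under it. The sequence of the gaps was not analysed here.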
